A study of Mus musculus with 6 samples.

Results

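Exocytosis genes were described in cultured adult mouse spinal cord neural stem cells sorted by a PDGFRa-GFP reporter. The genes were chosen by symbol: synaptotagmins, synaptotagmin-like proteins, syntaxins, syntaxin-binding proteins, complexins, vesicle-associated membrane proteins, the SNAP-25 family, Rab3 GTPases, RIM proteins, Munc13 proteins (Unc13 genes) and rabphilin (Rph3a). The rule used no measured value and found 74 of the 26264 genes in the count table.

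In exocytosis, a vesicle is tethered to the plasma membrane, docked, primed and fused. Fusion is driven by SNARE proteins, which zip together from the vesicle side (VAMPs) and the target membrane side (syntaxins and the SNAP-25 family). Rab3 and its effectors rabphilin and RIM act in tethering and docking, Munc13 and Munc18 proteins in priming, and complexins and synaptotagmins in coupling fusion to calcium. Many families hold a form best known from neurons beside forms used by most cells, and astrocytes and oligodendrocyte precursors are also known to use parts of this machinery.

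The sort gave 3 GFP-positive and 3 GFP-negative RNA libraries, read by bulk sequencing. The series set out to study how such cultures give rise to oligodendrocyte precursors and oligodendrocytes, and the reporter follows Pdgfra, the receptor that marks oligodendrocyte precursors. All libraries came from C57BL6J spinal cord neural stem cells grown with EGF, FGF2, N2 and B27 and separated by fluorescence-activated cell sorting. The genotype label reads PDGFRaGFP/+ on the GFP-positive libraries and PDGFRaGFP/- on the GFP-negative ones, so an effect of genotype cannot be told apart from that of the sort. The labels give no age in weeks or months, and do not say whether the library numbers, used here as replicates 1 to 3, stand for animals, cultures or days. The p-values therefore reflect only how far these libraries spread, and that spread may be technical.

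Depth was 36846570 to 45207335 counts in the GFP-positive libraries and 31067850 to 32869705 in the GFP-negative ones, and the 74 genes took 0.249% to 0.264% of the counts of a library. Levels are given as CPM, the count of a gene relative to its TMM-scaled library size. Differences are log2 fold changes of GFP-positive over GFP-negative cells, with the standard error (SE) and the Benjamini-Hochberg adjusted p of edgeR's quasi-likelihood test over 14554 genes. A gene was called at an adjusted p below 0.05. Pdgfra, which the sort follows, averaged 229 CPM in GFP-positive against 13.7 CPM in GFP-negative libraries. Oligodendrocyte precursor markers were higher in GFP-positive libraries for 10 of 10 listed genes, with sums of 5084 to 5428 CPM there against 2446 to 2832 CPM in GFP-negative libraries. Astrocyte markers were lower for 9 of 10 and higher for 1 (sums of 1157 to 1236 CPM in GFP-positive against 4252 to 5161 CPM in GFP-negative libraries), and neural stem cell markers were lower for 6 of 6 (1625 to 1839 CPM in GFP-positive against 5379 to 6116 CPM in GFP-negative libraries). Listed neuron markers were higher for 6 and lower for 1 of the 8 tested of 12, with sums of 4207 to 4707 CPM in GFP-positive against 1720 to 1980 CPM in GFP-negative libraries. Most of that sum was the microtubule protein gene Map2, which averaged 4232 CPM in GFP-positive against 1640 CPM in GFP-negative libraries. Rbfox3, which encodes the neuronal nuclear protein NeuN, averaged 13.0 CPM in GFP-positive against 3.53 CPM in GFP-negative libraries, while Stmn2, Slc32a1 and Chat stayed below 1 CPM in every library and Slc17a6 had no count. Of 10 mature oligodendrocyte markers 4 were tested, 2 of them higher (Mbp 2.50 and Cldn11 2.34 as log2 fold changes) and 1 lower (Aspa, -4.08), with sums of 28.0 to 42.2 CPM in GFP-positive against 20.9 to 23.5 CPM in GFP-negative libraries. Microglial, endothelial and erythroid marker sums stayed below 10 CPM in every library. The part of these markers in the exocytosis results was not tested. In bulk samples, fewer cells of a type and less RNA per cell cannot be told apart.

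Exocytosis genes moved in both directions between the fractions, often within 1 family. Rph3a, Snap25, Syt1, Cplx1, Rims2, Unc13a, Stx16 and Snap47 were among those that rose in GFP-positive cells. Those that fell included Syt11, Stx4a, Snap23, Vamp3, Stxbp3, Cplx2, Rab3b, Rab3d, Sytl2 and Sytl4, and Vamp2 was not called. Of the 74 genes, 65 passed the low-count filter and 9 did not. Among the 65, 27 were higher in GFP-positive cells, 16 were lower and 22 were not called, so that 41.5% were higher and 24.6% lower. Over all tested genes, 55.4% were called, 26.1% as higher and 29.2% as lower. The role classes below hold 2 to 15 tested genes each, and their counts are to be read beside these shares. By more than 1 on the log2 scale, 16 members were higher and 9 were lower, where the shares over all tested genes were 6.07% and 12.3%. The values of the 2 groups did not overlap for 48 members, 29 with GFP-positive libraries above and 19 below; over all tested genes 64.2% did not overlap. The 43 called members were all among these 48, which also fixes their direction in all 3 pairs of same-numbered libraries. Such separation was the rule for called genes. Over all tested genes, 3779 of the 3804 called higher and 4204 of the 4254 called lower did not overlap. The median log2 fold change was 0.12 over the 65 members and -0.01 over all tested genes. Without replicate 3 of both fractions, 19 members were called higher and 14 lower.

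**Figure D1:**
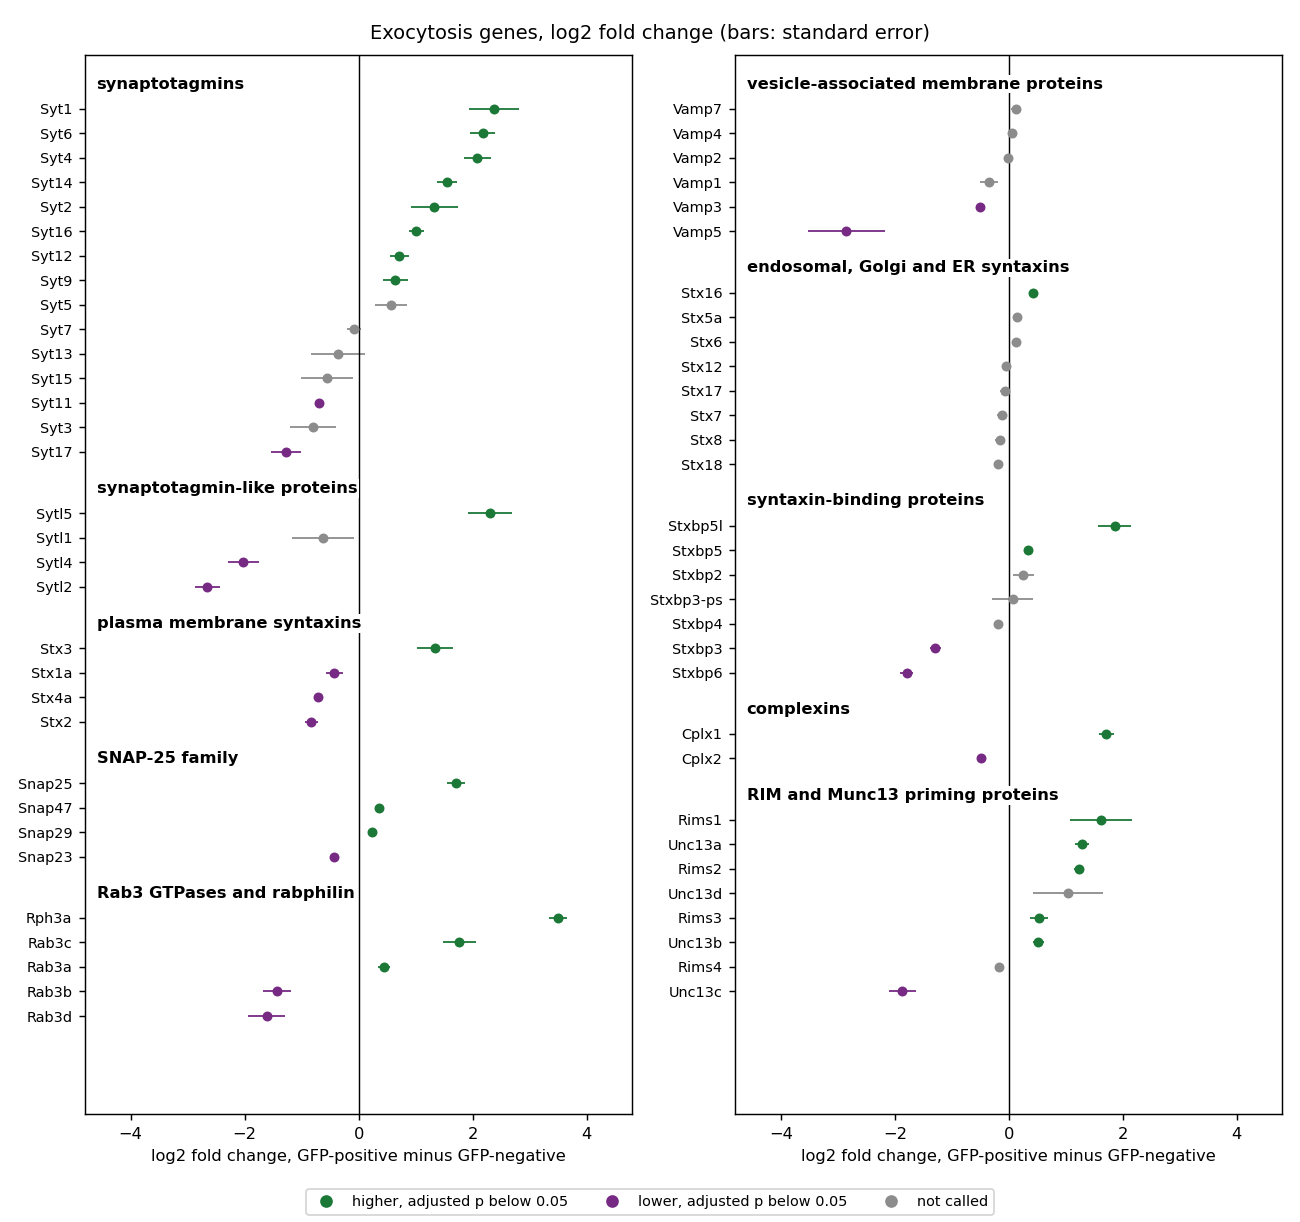
Log2 fold change of 63 of the 65 tested exocytosis genes, GFP-positive over GFP-negative (x axis), by role class; bars are the standard error of the edgeR fit, and colour marks genes called higher, called lower or not called at an adjusted p below 0.05. Rph3a stands at the high end (3.50) and Vamp5 at the low end (-2.85).

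The synaptotagmins are vesicle proteins with paired C2 domains, several of which bind calcium and trigger fusion. Of 17 genes 15 were tested, and 8 were higher in GFP-positive cells, 2 were lower and 5 were not called. Without GFP-negative replicate 2, 4 were lower. These 4 take in Syt7 and a gene that did not pass the low-count filter in the fit of all 6 libraries. Those that rose included the fast calcium sensors of synaptic release. Syt1 had 10.6, 14.7 and 11.0 CPM in the GFP-positive libraries, against 1.30, 4.43 and 1.30 CPM in the GFP-negative ones (log2 fold change 2.37, SE 0.44, adjusted p = 0.0023). The groups did not overlap, and replicate 2 was the highest in each fraction. Its close relative Syt2 rose at a low level, with 0.735, 0.596 and 0.734 CPM in GFP-positive against 0.425, 0.159 and 0.227 CPM in GFP-negative libraries (1.32, SE 0.41, adjusted p = 0.0252). Syt9, another sensor of this group, differed by 0.65 (SE 0.22, adjusted p = 0.0371). Both calls depended on which libraries were used. Syt9 was not called without any one of the 3 GFP-positive libraries or without GFP-negative replicate 1 or 3, with log2 fold changes of 0.51 to 0.73 and adjusted p of 0.0569 to 0.114. Syt2 was not called without GFP-positive replicate 1 or 3 or GFP-negative replicate 2 or 3, at 1.07 to 1.29 and adjusted p of 0.0699 to 0.0835.

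The other called synaptotagmins moved in both directions. Syt11 had 540, 538 and 553 CPM in GFP-positive libraries and 830, 807 and 992 CPM in GFP-negative ones, and fell by 0.69 on the log2 scale (SE 0.08, adjusted p = 0.000237). It lacks calcium-dependent binding and acts in membrane traffic and endocytosis. Its nearest relative Syt4, found on dense core vesicles, rose by 2.08 (SE 0.24), with 5.01, 7.86 and 6.61 CPM in GFP-positive against 1.18, 1.66 and 1.78 CPM in GFP-negative libraries. Syt16 had 23.3, 24.2 and 25.4 CPM in GFP-positive libraries and 10.8, 14.4 and 10.9 CPM in GFP-negative ones, a difference of 1.01 (SE 0.12, adjusted p = 0.000248). Syt14, the closest relative of Syt16, rose by 1.55 (SE 0.18). For Syt16, Syt14 and Syt4 every GFP-positive library lay above every GFP-negative one. Syt6, known for its part in acrosome exocytosis, rose by 2.18 (SE 0.22), and Syt12 rose by 0.72 (SE 0.17). Syt17, a peripheral relative found at the Golgi, fell by 1.28 (SE 0.26). Exons of antisense genes cover 14.5% of the exon length of Syt4, 17.2% of Syt12 and 8.67% of Syt6 in the GENCODE M21 annotation, and the strand setting of the counting is not given in the sources used here.

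The other synaptotagmins tested were not called. Syt7, a slow calcium sensor of high affinity that also acts in lysosome exocytosis, had 127, 126 and 119 CPM in GFP-positive libraries and 148, 103 and 142 CPM in GFP-negative ones. The groups overlapped, and the 95% interval of the difference was -0.32 to 0.16. Without GFP-negative replicate 2, the lowest library, Syt7 was called lower (-0.21, adjusted p = 0.00895). Syt13 lay at 1.99, 6.12 and 3.40 CPM in GFP-positive against 3.34, 8.25 and 3.37 CPM in GFP-negative libraries. The log2 fold changes of Syt5, Syt3 and Syt15 were 0.57, -0.80 and -0.55, all at means below 1.5 CPM. Per kilobase of exon, Syt11 made up 77.7% ± 0.744 of the summed synaptotagmin level in GFP-positive against 86.9% ± 1.18 in GFP-negative libraries (SD, n = 3 each). On the same scale Syt7 made up 12.3% ± 0.547 in GFP-positive against 9.03% ± 1.45 in GFP-negative libraries, and no other synaptotagmin had a mean share above 1.98% in either fraction.

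The synaptotagmin-like proteins (Sytl genes) are Rab27 effectors that tether secretory granules and share the paired C2 domains. Of 4 tested, Sytl5 was higher, Sytl2 and Sytl4 were lower, and Sytl1 was not called (-0.63, interval -1.69 to 0.44). Sytl2, which acts in melanosome and granule docking, had 0.926, 1.30 and 1.09 CPM in GFP-positive libraries and 6.10, 8.57 and 6.38 CPM in GFP-negative ones (-2.66, SE 0.22, adjusted p = 3.29e-05). Sytl4, known as granuphilin from insulin granules, fell by 2.03 (SE 0.27, adjusted p = 0.000418). Sytl5 had 5.94, 4.42 and 7.62 CPM in GFP-positive libraries and 1.09, 1.91 and 0.616 CPM in GFP-negative ones (2.31, SE 0.38, adjusted p = 0.00127). The groups did not overlap for any of these 3 genes, all of which had means below 10 CPM. Per kilobase of exon, Sytl5 was 88.1% ± 3.91 of the family in GFP-positive against 29.7% ± 10.8 in GFP-negative libraries. These shares rest on the exon lengths used, 2301 bases for Sytl5 and 13941 for Sytl2.

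Among the syntaxins that act at the plasma membrane, the 5 tested were all called, 2 higher and 3 lower. Of all tested genes 55.4% were called. Stx3, used in apical secretion and at ribbon synapses, rose by 1.34 (SE 0.31) at means of 1.22 CPM in GFP-positive against 0.480 CPM in GFP-negative libraries. Stx4a, which serves constitutive and insulin-responsive exocytosis, fell by 0.71 (SE 0.07, adjusted p = 9.12e-05), with 26.8, 27.5 and 29.7 CPM in GFP-positive against 45.3, 43.8 and 48.2 CPM in GFP-negative libraries. Stx2, known as epimorphin, fell by 0.83 (SE 0.11). Stx1a, a neuronal syntaxin, differed by -0.43 (SE 0.15, adjusted p = 0.044), with 4.63, 5.21 and 4.79 CPM in GFP-positive against 5.46, 6.92 and 7.32 CPM in GFP-negative libraries. It was also not called with each library scaled to an equal median (-0.34, adjusted p = 0.0912) or with no low-count filter (-0.42, adjusted p = 0.0647). Without any one of the 3 GFP-positive libraries or GFP-negative replicate 2 or 3, its value was -0.47 to -0.33 and the adjusted p 0.0687 to 0.142. Antisense exons cover 5.25% of the exon length of Stx4a.

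The SNAP-25 family supplies the remaining target-membrane SNARE, and its 4 genes were all called, beside 55.4% of all tested genes. Snap25, the neuronal and neuroendocrine form, had 12.8, 10.7 and 9.85 CPM in GFP-positive libraries and 3.15, 3.86 and 3.18 CPM in GFP-negative ones (1.71, SE 0.15, adjusted p = 5.12e-05). Snap23, the form of most other cells, fell by 0.43 (SE 0.07, adjusted p = 0.00109), with 30.6, 30.8 and 33.0 CPM in GFP-positive against 42.3, 40.3 and 44.9 CPM in GFP-negative libraries. Neither gene's groups overlapped. Snap47, a widely expressed relative, had 64.2, 66.8 and 66.6 CPM in GFP-positive libraries and 48.2, 51.7 and 55.3 CPM in GFP-negative ones (0.35, SE 0.07, adjusted p = 0.00243). Antisense exons cover 11.6% of its exon length. Snap29, which acts with Stx17 in autophagosome fusion, differed by 0.24 (SE 0.07, adjusted p = 0.0162). It was not called without GFP-positive replicate 2 (0.21, adjusted p = 0.056) or GFP-positive replicate 3 (0.24, adjusted p = 0.0592). Although Snap25 differed most, per kilobase of exon it was 3.47% ± 0.564 of the family in GFP-positive against 1.21% ± 0.151 in GFP-negative libraries, and Snap47 had the highest level of the family in both.

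Of 6 VAMPs tested, 0 were higher in GFP-positive cells, 2 were lower and 4 were not called. Over all tested genes, 26.1% were called higher and 29.2% lower, and counts among 6 genes do not set the VAMPs apart from these shares. The count of 0 higher genes was the same with edgeR, DESeq2 and limma-voom and at an unadjusted p below 0.05 in edgeR. Vamp2, the synaptobrevin of synaptic vesicles, had 75.7, 73.3 and 74.3 CPM in GFP-positive libraries and 75.1, 80.1 and 71.3 CPM in GFP-negative ones. The groups overlapped, with a difference of -0.02, a 95% interval of -0.14 to 0.09 and an adjusted p of 0.779. Vamp3, the cellubrevin of constitutive and recycling traffic, fell by 0.51 (SE 0.05, adjusted p = 0.000118), with 57.5, 55.3 and 55.0 CPM in GFP-positive against 79.7, 81.7 and 77.1 CPM in GFP-negative libraries. Vamp4 of the trans-Golgi network (0.05, interval -0.08 to 0.17) and Vamp7 of lysosomal and neurite traffic (0.12, interval -0.05 to 0.29) were not called. Vamp1, the other synaptobrevin, was not called either (-0.35, interval -0.65 to -0.05, adjusted p = 0.0844). The interval of Vamp1 leaves out 0, though its unadjusted p in edgeR's quasi-likelihood test was 0.0516. Vamp5, described in muscle, was called lower on few reads, 8 counts summed over the GFP-positive libraries against 48 over the GFP-negative ones (-2.85, SE 0.68, adjusted p = 0.00753). Per kilobase of exon, Vamp2 made up 31.2% ± 0.488 and Vamp3 31.0% ± 0.254 of the VAMP level in GFP-positive libraries, and 28.2% ± 0.651 and 39.1% ± 0.335 in GFP-negative ones.

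The syntaxins of endosomes, the Golgi and the endoplasmic reticulum were mostly not called: 7 of 8, with 1 higher and 0 lower. Over all tested genes, 26.1% were called higher and 29.2% lower. The count of 0 lower genes was the same with edgeR, DESeq2 and limma-voom and at an unadjusted p below 0.05 in edgeR. Without replicate 2 of both fractions it was 1, with Stx18 called lower (-0.26, adjusted p = 0.0314). Stx12, of recycling endosomes, had 136, 143 and 138 CPM in GFP-positive libraries and 143, 147 and 141 CPM in GFP-negative ones. The groups overlapped, with a difference of -0.05 and a 95% interval of -0.14 to 0.05. Stx16, which acts at the trans-Golgi network, rose by 0.43 (SE 0.06, adjusted p = 0.000429), with 104, 98.5 and 103 CPM in GFP-positive against 71.6, 77.0 and 79.1 CPM in GFP-negative libraries. Stx5a and Stx6 of the Golgi, Stx7 and Stx8 of late endosomes, Stx17 of autophagosomes and Stx18 of the endoplasmic reticulum had log2 fold changes of -0.18 to 0.15. Their 95% intervals lay within -0.35 to 0.27. With each library scaled to an equal median log2 CPM, which moved the median log2 fold change of all genes up to 0.08, Stx5a (0.23, adjusted p = 0.0122) and Stx6 (0.21, adjusted p = 0.0207) were called higher. Antisense exons cover 32.3% of the exon length of Stx18.

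The syntaxin-binding group joins the Munc18 proteins, which clasp syntaxins and are needed for priming, with the tomosyns and amisyn, which compete for SNARE assembly and restrain fusion. Of 8 genes, 3 were higher, 2 were lower and 3 were not called, beside 26.1% higher and 29.2% lower over all tested genes. Stxbp3, the Munc18 form that pairs with syntaxin 4, had 11.7, 11.4 and 11.9 CPM in GFP-positive libraries and 28.0, 25.8 and 31.6 CPM in GFP-negative ones (-1.29, SE 0.10, adjusted p = 2.12e-05). Stxbp3 and Stx4a were thus both lower. The pseudogene Stxbp3-ps was near 1 CPM or below on average in both fractions (interval -0.63 to 0.77), and reads shared by these similar sequences make the split between them uncertain. Stxbp2, the Munc18 of epithelial and blood cell secretion, differed by 0.25 (interval -0.10 to 0.61) and was not called.

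Among the fusion-restraining members the tomosyns rose and amisyn fell. Stxbp5, tomosyn, had 68.1, 66.4 and 61.0 CPM in GFP-positive libraries and 49.0, 53.0 and 52.9 CPM in GFP-negative ones (0.34, SE 0.07, adjusted p = 0.00299). Stxbp5l, its neuronal relative, had 22.4, 19.1 and 24.9 CPM in GFP-positive libraries and 7.92, 3.22 and 7.19 CPM in GFP-negative ones (1.85, SE 0.29, adjusted p = 0.00089). Stxbp6, amisyn, had 5.67, 5.10 and 5.09 CPM in GFP-positive libraries and 16.6, 20.4 and 17.8 CPM in GFP-negative ones (-1.79, SE 0.12, adjusted p = 1.09e-05). In none of these 3 genes did the groups overlap. Stxbp4, known as Synip from its binding to syntaxin 4, had an adjusted p of 0.0643 (-0.18, SE 0.07). It was called lower with the replicate numbers as a block (-0.18, adjusted p = 0.039) and without GFP-negative replicate 2 (-0.22, adjusted p = 0.0203).

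Complexins bind the assembled SNARE complex and hold it ready for calcium. The 2 tested moved in opposite directions: Cplx1 had 20.5, 17.97 and 18.5 CPM in GFP-positive libraries and 6.46, 4.69 and 6.25 CPM in GFP-negative ones (1.71, SE 0.14, adjusted p = 3.06e-05). Cplx2 had 40.3, 44.1 and 39.4 CPM in GFP-positive libraries and 59.7, 55.4 and 58.6 CPM in GFP-negative ones (-0.49, SE 0.07, adjusted p = 0.000469). Both genes' groups were separate. Per kilobase of exon the pair had nearly equal levels in GFP-positive cells, 8.68 ± 0.618 for Cplx1 and 8.38 ± 0.502 CPM per kb for Cplx2, against 2.65 ± 0.444 and 11.7 ± 0.453 CPM per kb in GFP-negative cells (SD, n = 3 each). The near equality rests on the exon lengths used, 2189 bases for Cplx1 and 4928 for Cplx2. The promoter windows of this pair are shown because close relatives with the same biochemical role went opposite ways. They run from 250 bases before to 50 after the start in the RefSeq table for GRCm38.p6, printed 5′ to 3′ on the gene's strand, and capitals mark the GC box GGGCGG on either strand. Cplx1 is at chr5:108549978-108550277 on the minus strand and Cplx2 at chr13:54302306-54302605 on the plus strand.
Cplx1: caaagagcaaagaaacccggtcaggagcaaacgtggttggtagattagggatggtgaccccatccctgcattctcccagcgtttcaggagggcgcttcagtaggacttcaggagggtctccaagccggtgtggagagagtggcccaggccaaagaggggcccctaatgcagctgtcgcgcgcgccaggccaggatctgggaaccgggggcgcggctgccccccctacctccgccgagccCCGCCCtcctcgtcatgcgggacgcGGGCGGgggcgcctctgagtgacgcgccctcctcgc
Cplx2: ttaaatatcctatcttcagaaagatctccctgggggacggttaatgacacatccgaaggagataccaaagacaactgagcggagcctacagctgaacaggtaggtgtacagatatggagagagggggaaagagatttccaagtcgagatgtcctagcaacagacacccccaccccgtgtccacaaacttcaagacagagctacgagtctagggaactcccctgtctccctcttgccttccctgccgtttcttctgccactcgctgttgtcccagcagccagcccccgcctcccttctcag
The Cplx1 window had 67.0% G and C, 24 CpG and 2 GC boxes, and the Cplx2 window had 53.3%, 9 CpG and 0 GC boxes. Each also had 1 CAGCTG match and 0 matches to TATAAA or CCAAT.

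Rab3 GTPases sit on secretory vesicles and recruit rabphilin and RIM in their GTP-bound state. All 5 genes of this group were called, 3 higher and 2 lower, beside 55.4% called over all tested genes. Rph3a, rabphilin, had 171, 127 and 159 CPM in GFP-positive libraries and 12.6, 11.5 and 16.3 CPM in GFP-negative ones, 11.3-fold higher (log2 fold change 3.50, SE 0.16, adjusted p = 2.89e-06). This was the highest positive log2 fold change of the 65 tested exocytosis genes. Rab3c had 29.3, 32.5 and 24.9 CPM in GFP-positive libraries and 5.85, 13.3 and 6.35 CPM in GFP-negative ones (1.77, SE 0.29, adjusted p = 0.00123). Rab3a, the main Rab3 of synaptic vesicles, rose by 0.44 (SE 0.10, adjusted p = 0.00603), with 24.0, 24.3 and 20.5 CPM in GFP-positive against 18.3, 15.8 and 16.5 CPM in GFP-negative libraries. Rab3b, found in pituitary and epithelial cells and some neurons, fell by 1.43 (SE 0.25, adjusted p = 0.00163), with 5.15, 3.996 and 4.57 CPM in GFP-positive against 15.6, 7.78 and 13.6 CPM in GFP-negative libraries. Rab3d, of exocrine and other secretory granules, fell by 1.62 (SE 0.33, adjusted p = 0.00361) at means of 0.613 CPM in GFP-positive against 1.89 CPM in GFP-negative libraries. The groups did not overlap for any of the 5 genes. Antisense exons cover 9.0% of the exon length of Rab3b. The windows of Rab3c, at chr13:110280157-110280456 on the minus strand, and Rab3b, at chr4:108878820-108879119 on the plus strand, are shown as a further pair of relatives that went opposite ways, with the same build and the same motif in capitals.
Rab3c: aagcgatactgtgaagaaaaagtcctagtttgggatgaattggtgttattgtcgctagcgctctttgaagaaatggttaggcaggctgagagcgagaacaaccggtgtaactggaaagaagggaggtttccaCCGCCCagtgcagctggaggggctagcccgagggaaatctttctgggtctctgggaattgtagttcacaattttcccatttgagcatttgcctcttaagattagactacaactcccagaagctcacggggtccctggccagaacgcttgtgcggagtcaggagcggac
Rab3b: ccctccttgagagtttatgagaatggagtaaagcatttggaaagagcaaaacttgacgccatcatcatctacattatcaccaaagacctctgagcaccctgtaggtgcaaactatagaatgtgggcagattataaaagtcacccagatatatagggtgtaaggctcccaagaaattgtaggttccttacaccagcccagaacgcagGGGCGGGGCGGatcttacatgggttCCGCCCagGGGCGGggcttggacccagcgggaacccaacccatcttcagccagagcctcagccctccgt
The Rab3c window had 50.7% G and C, 1 GC box, 1 CAGCTG match, 1 CCAAT match and 0 TATAAA matches. The Rab3b window had 51.7%, 4 GC boxes, among them an overlapping pair, 1 TATAAA match and 0 matches to CAGCTG or CCAAT.

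Promoter windows were found for 56 of the 74 genes, 70 windows in all. The GC box GGGCGG stood in 64.3% of these and in 35.7% of the 32851 windows of all genes, counting both strands. CAGCTG, an E-box, stood in 31.4% against 16.3%, TATAAA in 4.29% against 13.6%, and CCAAT in 34.3% against 37.4%. The cyclic AMP response element TGACGTCA stood in 1.43% against 1.79%, and TTCAGCACC, the left part of the RE1 element, in 1.43% against 0.371%, which is 1 window in each case among the 70. By call, the median G and C share was 64.0% in the 29 windows of higher genes, 62.3% in the 14 of lower genes and 60.0% in the 17 of genes not called, and the median CpG number was 19 in each. Over all windows the medians were 52.7% and 7. The windows of all genes cover 27025 genes and were not matched to the members in level, gene type or G and C share. The matches are descriptions of letters in the windows.

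RIM and Munc13 proteins form the core of the release site: RIM links Rab3, Munc13 and calcium channels, and Munc13 opens syntaxin for SNARE assembly. Of 8 genes, 5 were higher in GFP-positive cells, 1 was lower and 2 were not called. Rims2 had 145, 145 and 143 CPM in GFP-positive libraries and 58.4, 69.4 and 57.3 CPM in GFP-negative ones (1.23, SE 0.08, adjusted p = 1.05e-05). Unc13a, the main Munc13 of glutamatergic synapses, had 39.2, 37.2 and 34.6 CPM in GFP-positive libraries and 17.1, 16.0 and 12.6 CPM in GFP-negative ones (1.28, SE 0.12, adjusted p = 6.2e-05). Both were clear of overlap. Rims1, the other long RIM, had 16.2, 26.7 and 17.6 CPM in GFP-positive libraries and 3.03, 13.7 and 3.11 CPM in GFP-negative ones (1.61, SE 0.54, adjusted p = 0.0342). Replicate 2 was the highest in both fractions, and its GFP-negative library lay close below the GFP-positive ones. Rims1 was not called without any one of the other 5 libraries (1.27 to 1.76, adjusted p 0.0578 to 0.105), and without GFP-negative replicate 2 it differed by 2.73 (adjusted p = 1.43e-05). With the replicate numbers as a block it was called, at 1.87 (adjusted p = 0.000623).

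The other members of these families were spread in direction. Unc13b, a second Munc13 of synapses, rose by 0.52 (SE 0.10, adjusted p = 0.00224). Unc13c, best known from cerebellar granule cells, had 1.53, 1.70 and 1.36 CPM in GFP-positive libraries and 5.49, 4.18 and 7.19 CPM in GFP-negative ones (-1.87, SE 0.24, adjusted p = 0.000306). Unc13d, needed for lytic granule release in lymphocytes, differed by 1.03 (interval -0.17 to 2.24) at means below 1 CPM and was not called. Rims3 and Rims4 encode short RIM forms that keep the last C2 domain. Rims3 differed by 0.53 (SE 0.16, adjusted p = 0.0203), and was not called without GFP-positive replicate 1 or 3 or GFP-negative replicate 3 (0.50 to 0.54, adjusted p 0.0533 to 0.0614). Rims4 was not called (-0.17, adjusted p = 0.0996), and was called lower with the replicate block (-0.17, adjusted p = 0.0497). The count of higher genes in this group was 3 in place of 5 without GFP-positive replicate 1, GFP-positive replicate 3 or GFP-negative replicate 3.

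**Figure D2:**
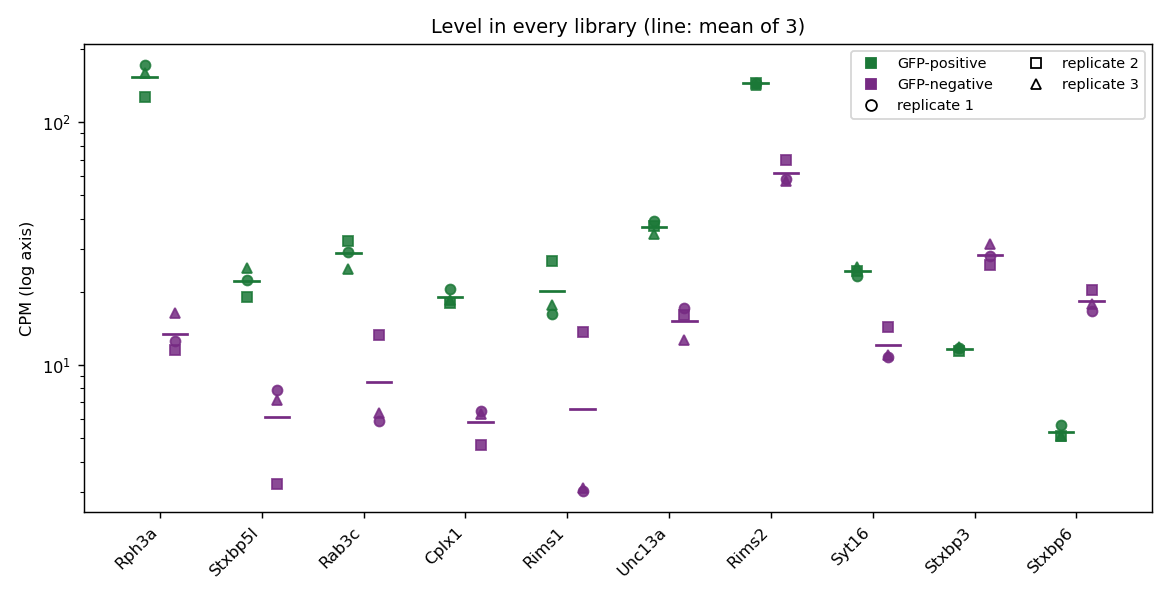
CPM (log axis) in every library for the 10 exocytosis genes called with a log2 fold change beyond 1 either way and a mean of at least 10 CPM; symbols mark replicates 1 to 3, lines the mean of 3, with GFP-positive left of GFP-negative. The GFP-positive libraries of Rph3a sit at 127 to 171 CPM, above the GFP-negative ones at 11.5 to 16.3 CPM, and replicate 2 of Rims1 stands above the other libraries of its fraction.

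Relatives moved in different directions or by different amounts, and the make-up of several families differed between fractions. Shares were computed per kilobase of exon in each library and are given as mean ± SD of 3 libraries. Cplx1 was 50.9% ± 2.86 of the complexin level in GFP-positive against 18.3% ± 2.03 in GFP-negative libraries. Among Rab3 genes, Rab3b was 9.22% ± 1.39 in GFP-positive against 28.1% ± 6.76 in GFP-negative libraries. Rab3c was 16.9% ± 1.04 in GFP-positive against 6.01% ± 3.60 in GFP-negative libraries. Rab3a had the highest level per kilobase in both fractions. In CPM, however, Rab3c averaged 28.9 against 22.9 for Rab3a in GFP-positive libraries. The Rab3 order there rests on the exon lengths used, 12049 bases for Rab3c and 2226 for Rab3a. In the RIM family, Rims2 was 51.6% ± 1.95 in GFP-positive against 34.1% ± 1.08 in GFP-negative libraries, and Rims4 was 29.1% ± 1.30 in GFP-positive against 51.0% ± 2.15 in GFP-negative libraries. Per kilobase, the highest level in the RIM family was that of Rims2 in each GFP-positive library and of Rims4 in each GFP-negative one. This order rests on the exon lengths used, 10389 bases for Rims2 and 4962 for Rims4. In the Munc13 family, Unc13a was 68.7% ± 3.20 in GFP-positive against 46.0% ± 7.84 in GFP-negative libraries. Unc13c was 4.07% ± 0.397 in GFP-positive against 24.2% ± 5.63 in GFP-negative libraries. Stx12 was 30.8% ± 0.145 of the syntaxin level in GFP-positive against 30.8% ± 0.770 in GFP-negative libraries. For each share given in this paragraph other than those of Stx12, the 3 libraries of 1 fraction did not overlap the 3 of the other. Shares within a family are tied to each other, and their differences were not tested apart from the gene tests above.

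**Figure D3:**
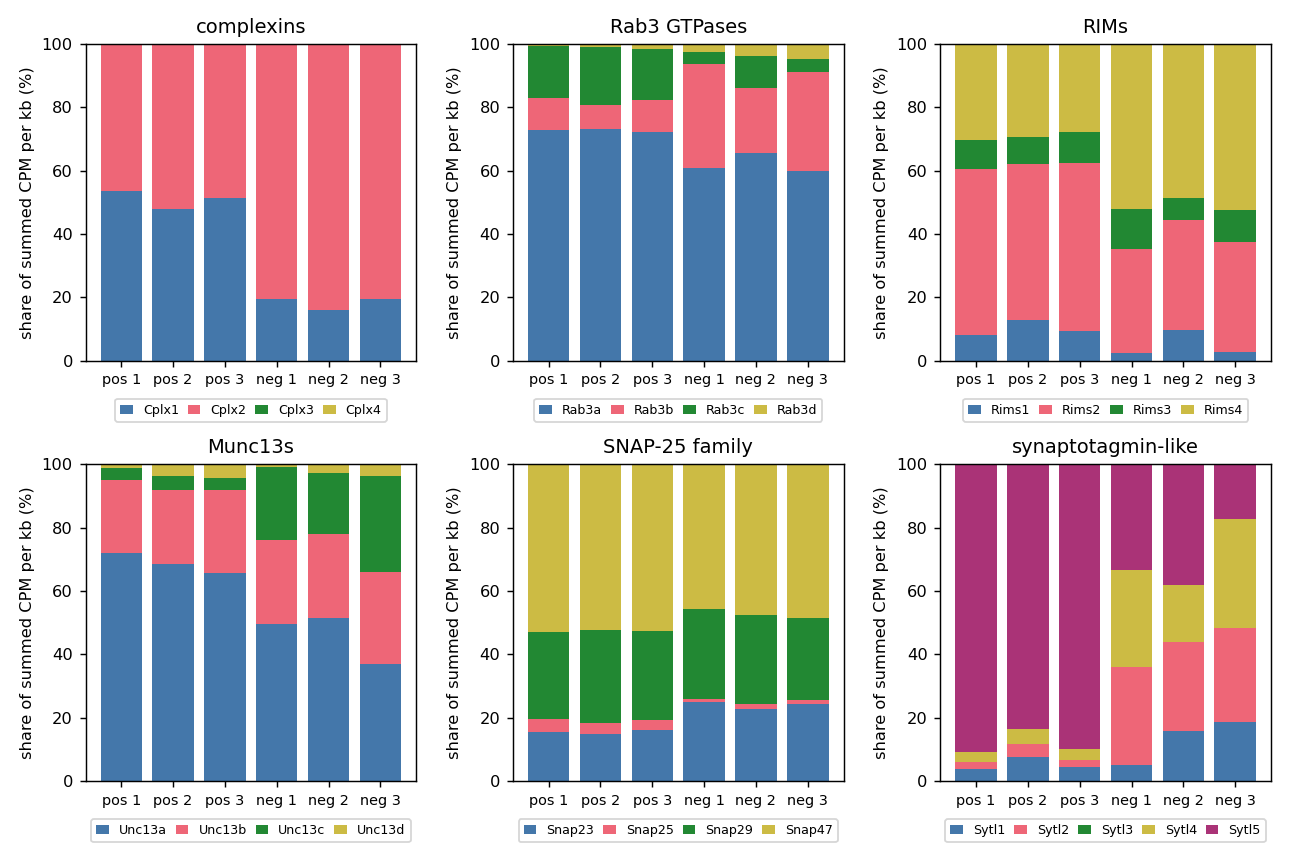
Share (%) of the summed CPM per kb of exon taken by each member in 6 families, 1 bar per library, GFP-positive (pos) left of GFP-negative (neg). Cplx1 takes 50.9% of the complexin level on average in GFP-positive against 18.3% in GFP-negative libraries, and Sytl5 88.1% against 29.7% of the synaptotagmin-like level.

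The 9 members that did not pass the low-count filter had few or no reads. Syt8 and Sytl3 had 0 counts in all 6 libraries, which allows a level of up to 0.014 CPM (3 counts of the 214062553 in all libraries together, counting error only). Summed over 3 libraries, Syt10 had 18 counts in GFP-positive against 66 in GFP-negative cells. Vamp8, the endobrevin of endosomes and granules, had 3 GFP-positive and 27 GFP-negative counts, and Stx11, a syntaxin of lymphocyte granules, had 7 GFP-positive and 22 GFP-negative counts. Cplx3 had 0 GFP-positive and 2 GFP-negative counts, and Vamp9 had 8 GFP-positive and 10 GFP-negative counts. Cplx4 had 2 counts and Stx19 had 1 count in each fraction. Cplx3 and Cplx4 are the complexins of retinal ribbon synapses. Vamp5 and Vamp8 are neighbouring coding genes in the GENCODE annotation, and both had fewer counts in the GFP-positive libraries.

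Replicate 2 stood apart for a few genes, in both fractions. As the log2(CPM + 0.5) of replicate 2 minus the mean of replicates 1 and 3, only Rims1 and Syt13 of the 65 members exceeded 0.5 in both fractions, which is 3.08%, against 1.14% of all tested genes (166). Beyond 0.5 in GFP-negative cells alone, Syt1, Rab3c, Syt9 and Sytl1 were higher in replicate 2, and Stxbp5l, Rab3b and Unc13c were lower. Beyond 0.5 in GFP-positive cells alone, Syt17 was higher and Syt6 and Syt14 were lower. Sytl5 was lower in GFP-positive replicate 2 and higher in GFP-negative replicate 2. A few lineage markers stood apart in the same libraries. Sox10 deviated by 1.14 in the GFP-positive fraction against 1.95 in the GFP-negative fraction. Mbp deviated by 1.26 in GFP-positive against 0.82 in GFP-negative cells, and C1ql1 by 0.34 against 1.49. The other oligodendrocyte precursor markers ranged from -0.19 (Lhfpl3) to 0.68 (Neu4) in GFP-positive cells. In GFP-negative cells they ranged from -0.37 (Cspg4) to 0.55 (Gpr17). Astrocyte markers ranged from -0.36 (Sox9) to 0.80 (Gja1) in GFP-positive cells, and from -0.75 (Fgfr3) to 0.41 (Gfap) in GFP-negative cells. Neuron markers ranged from -0.29 (Nefm) to 0.22 (Eno2) in GFP-positive cells. In GFP-negative cells they ranged from -0.19 (Nefm) to 0.68 (Rbfox3), with Tubb3 also at 0.68. The part of these markers in the exocytosis values was not tested. Without replicate 2 of both fractions, the log2 fold changes were 2.47 for Rims1, 3.06 for Syt1 and 2.98 for Sytl5. In that fit 26 members were called higher and 20 lower, counting all members that passed its own low-count filter.

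**Figure D4:**
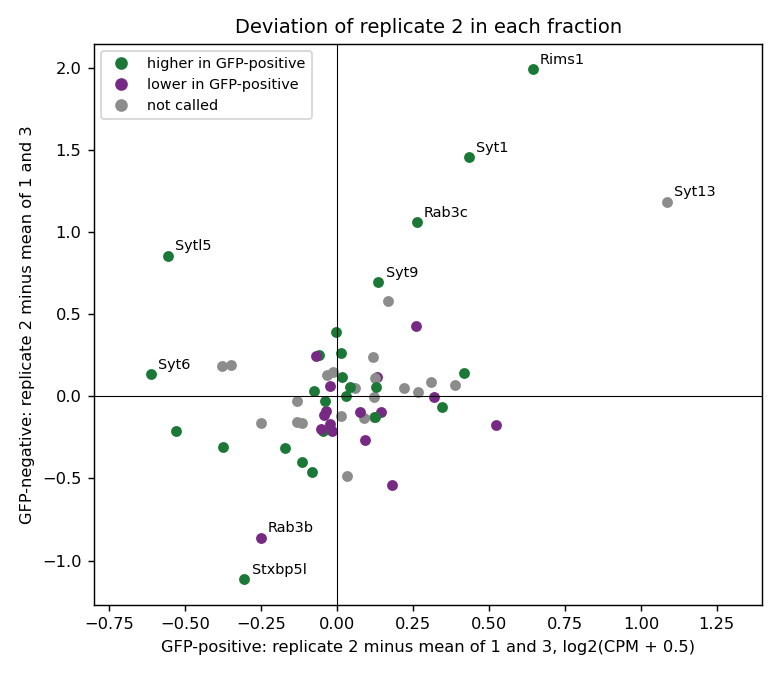
Deviation of replicate 2 from the mean of replicates 1 and 3 on the log2(CPM + 0.5) scale, GFP-positive on the x axis and GFP-negative on the y axis, 1 point for each of 63 tested exocytosis genes. Most points lie near 0, and Rims1 and Syt13 lie beyond 0.5 in both fractions.

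Other genes of the same pathway were taken from 8 lists holding 99 genes in the table, of which 84 were tested. Among them 36 (42.86%) were higher in GFP-positive cells, 16 (19.05%) were lower and 32 were not called, with a median log2 fold change of 0.07. Over all tested genes, 26.1% were higher and 29.2% lower, with a median of -0.01. The active zone and priming list, which surrounds RIM and Munc13 at release sites, had 11 higher and 1 lower of 15 (median 1.07), or 2 lower without GFP-negative replicate 2. Erc2 rose by 2.47 (SE 0.10), with means of 49.3 CPM in GFP-positive against 8.88 CPM in GFP-negative libraries, and Bsn, the scaffold Bassoon, rose by 1.99 (SE 0.09), with 116 CPM in GFP-positive against 29.1 CPM in GFP-negative libraries. Cadps2, a priming factor of dense core vesicles, fell by 1.95 (SE 0.42), with 0.815 CPM in GFP-positive against 3.15 CPM in GFP-negative libraries. The dense core granule list had 7 higher and 1 lower of 9 (median 2.07). Chga, chromogranin A, rose by 2.55 (SE 0.10), with means of 28.9 CPM in GFP-positive against 4.92 CPM in GFP-negative libraries, and Scg2, secretogranin II, rose by 3.13 (SE 0.22), with 7.75 CPM in GFP-positive against 0.884 CPM in GFP-negative libraries. Pcsk1, a prohormone convertase, fell by 3.02 (SE 0.54), at 0.0657 CPM in GFP-positive against 0.568 CPM in GFP-negative libraries.

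Synaptic vesicle proteins were divided, with 6 higher and 4 lower of 13 tested and 8 of the 21 genes below the filter. The shares were 46.2% higher and 30.8% lower, beside 26.1% and 29.2% over all tested genes. Without GFP-negative replicate 3, 2 were lower. Syn1, which clusters synaptic vesicles, rose by 0.91 (SE 0.08), with means of 78.2 CPM in GFP-positive against 41.6 CPM in GFP-negative libraries, and Syngr3 rose by 1.21 (SE 0.16). Sypl, the synaptophysin-like protein of many cell types, fell by 0.86 (SE 0.10), and Syngr2, likewise widely expressed, fell by 0.65 (SE 0.12). Of the 7 listed vesicular transmitter transporters, 1 passed the filter: Slc17a8, a glutamate transporter, averaged 0.198 CPM in GFP-positive against 0.817 CPM in GFP-negative libraries (-1.98, SE 0.61, adjusted p = 0.0236). Slc17a8 was picked out after its value was seen. Among the partners of Rab27 and Rab3, 4 of 9 were higher and 3 lower. Madd, an exchange factor for Rab3, rose by 1.01 (SE 0.05), with 117 CPM in GFP-positive against 58.0 CPM in GFP-negative libraries, and Rab3ip, also known as Rabin8, rose by 0.48 (SE 0.06). Rab26 fell by 4.01 (SE 0.55), with means of 1.68 ± 0.384 CPM in GFP-positive against 26.9 ± 16.3 CPM in GFP-negative libraries (SD), and Myrip, a Rab27 effector, fell by 1.13 (SE 0.21).

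The remaining lists hold general fusion and tethering factors. Their counts stand beside 26.1% called higher and 29.2% called lower over all tested genes. Of 12 other SNAREs, 0 were higher and 3 were lower by edgeR, with 0 higher by DESeq2 and limma-voom as well; 0 were higher at an unadjusted p below 0.05. Bet1 fell by 0.68 (SE 0.11) and Sec22b by 0.32 (SE 0.07), both of traffic between the endoplasmic reticulum and the Golgi. Among NSF, its SNAP adaptors and further Sec1/Munc18 proteins, 4 of 9 were higher and 0 lower by edgeR, with 0 lower by DESeq2 and limma-voom and 2 lower at an unadjusted p below 0.05. The lower count was 1 with upper-quartile scaling, with total counts only or with a filter of 1 CPM in 3 libraries. The higher count was 2 without GFP-positive replicate 2, GFP-negative replicate 1 or GFP-negative replicate 3, and 3 genes were called lower without GFP-negative replicate 2. Scfd2 rose by 1.70 (SE 0.09) and Vps33a, of late endosome fusion, by 0.46 (SE 0.05). Of 11 exocyst genes tested, 3 were higher and 1 was lower, or 2 lower without GFP-negative replicate 2. The higher share, 27.3%, was near that of all tested genes. Exoc5 rose by 0.32 (SE 0.07) and Exoc2 by 0.25 (SE 0.06), and Exoc3l4 fell by 3.42 (SE 0.33) at means below 3 CPM. Without replicate 1 of both fractions no exocyst gene was called higher. Of 6 other double C2 domain genes, 1 was higher and 3 were lower: Mctp1 differed by 1.39 (SE 0.42), Dysf, dysferlin, fell by 2.62 (SE 0.33) and Esyt2, which tethers the endoplasmic reticulum to the plasma membrane, fell by 0.24 (SE 0.05). Mctp1 was not called without GFP-positive replicate 1 or 3 or GFP-negative replicate 1 (1.34 to 1.44, adjusted p 0.0576 to 0.0688).

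**Figure D5:**
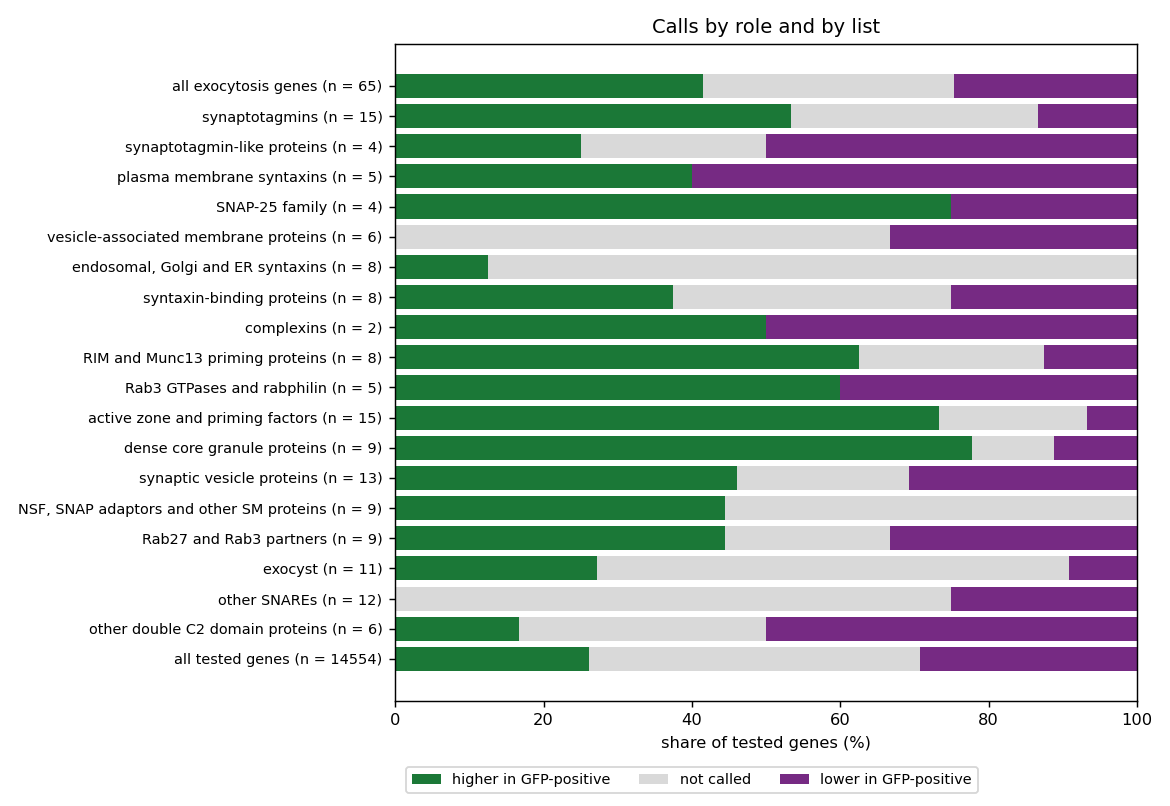
Share (%) of tested genes called higher, not called and called lower in GFP-positive cells, for the exocytosis genes by role, for the 8 other pathway lists and for all tested genes. The dense core granule list has 77.8% called higher and the active zone list 73.3%, against 26.1% of all tested genes.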

How the data were processed

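The submitters' processing notes list TopHat2 2.1.1, featureCounts 2.0.0 and SAMtools 1.9 with the mm39 build. Libraries were made with a stranded SMART-Seq kit, per the labels' protocols. For the annotation, the strand setting and multiply mapped reads, nothing is given in the sources used here, so close copies and antisense pairs are uncertain. The authors deposited raw counts per gene symbol, per the file headers, with no normalization. The limit given for 0 counts covers counting error only, since PCR copies are counted.

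Here, edgeR 4.0.16 (R 4.3.3) was run over all genes with TMM scaling, its default low-count filter, the quasi-likelihood test and Benjamini-Hochberg adjustment over 14554 genes. SE is the log2 fold change over the square root of F, and intervals are ± 1.96 SE, unadjusted, so they include the spread between libraries. With 3 libraries per group, this multiplier gives intervals narrower than the quasi-likelihood test implies, so an interval without 0 is not a call. CPM were computed on TMM-scaled library sizes. Per-kilobase values used the summed exon length in GENCODE M21 (GRCm38), matched by symbol for 74 of 74 genes. No libraries were merged, since within a group the chi-square per degree of freedom was 9.83 to 34.2, above counting noise. The titles' numbers are shared between fractions. Libraries with the same number deviated together, with correlations of 0.271, 0.433 and 0.233 over genes, each past 0.1. Libraries with other numbers had correlations of -0.370 to 0.177. Among these, GFP-positive 3 with GFP-negative 1, at 0.177, also passed 0.1, so this limit alone does not settle the pairing. The numbers were taken to pair the samples. The reported log2 fold changes, SE and p are nevertheless from the fit without the numbers as a block. The blocked fit is given where it changes a call, and for Rims1.

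Values in every library are given for genes called with a log2 fold change beyond 1 either way and a mean of at least 10 CPM, and for the gene of highest level in each role class; those of other members were added after their values were seen. In each further list, up to 2 called genes each way with the smallest p are named. The members and lists were chosen with earlier results of these data known. Alternatives were other scalings, filters, DESeq2 1.42.0, limma 3.58.1 (voom), the replicate block and leaving out libraries. Results for some single genes are not reported here; they stay in the counts.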

Additional observations from a re-analysis of the deposited data

How the results depend on the processing

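Across the 18 alternatives, 19 to 29 exocytosis genes were called higher in GFP-positive cells and 14 to 20 lower, against 27 and 16 as reported. Each alternative set its own tested genes, so these counts can hold members that were not tested in the reported fit. No called exocytosis gene changed direction. DESeq2 called 26 higher and 16 lower, and limma-voom 27 and 16. With the replicate numbers as a block, 27 were higher and 18 lower: Rims4 and Stxbp4 were gained and no call was lost. Leaving out libraries gave 19 to 26 higher and 14 to 20 lower, and 25 to 37 higher and 9 to 21 lower among the other pathway genes, the lowest of these, 9 against 16, without replicate 3. Without replicate 3, 10 calls were lost, among them those of Stx1a, Stx3, Rims3, Rims1, Snap29, Syt9, Syt12, Syt2 and Vamp5, with fewer samples in the fit. DESeq2 did not call Rims1 (adjusted p = 0.053). Scaling each library to an equal median log2 CPM (median centring) shifted the median of all genes to 0.08, and 56.7% of all calls were then higher, against 47.2% as reported, with 29 exocytosis genes higher and 15 lower. Under it, 4 genes not called in the reported fit changed sign: Stx12 (0.039), Stx17 (0.013), Syt7 (0.011) and Vamp2 (0.066). Over the fits without a library or a number, Vamp2 lay between -0.054 and 0.043, Syt7 between -0.22 and 0.020, Syt13 between -0.88 and 0.21 and Stxbp3-ps between -0.26 and 0.33. The cause of these shifts was not tested. Depth limits Vamp5, Unc13d and the 9 untested genes, which rest on few reads.

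Without replicate 3, several counts by class fell: synaptotagmins higher 5 in place of 8, RIM and Munc13 higher 3 in place of 5, plasma membrane syntaxins higher 1 in place of 2, VAMPs lower 1 in place of 2, and other SNAREs lower 1 in place of 3. Other settings moved counts as far: exocyst higher was 0 in place of 3 without replicate 1, and NSF and SM proteins lower was 3 in place of 0 without replicate 2. Without replicate 2, Stx18 was called lower.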
